A study of Mus musculus with 6 samples.

Results

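The cholesterol synthesis genes described here are Hmgcs1, Sqle, Lss, Cyp51, Dhcr7, Fdft1 and Insig1. They were chosen by name, all 7 were among the 13024 genes of the count table, and all 7 passed the filter on low counts together with 12879 genes in all. The RNA came from whole mouse lenses dissected at embryonic stage E14.5. The table holds 6 libraries, 3 of them labelled control and 3 labelled Gata3 CKO, the conditional knockout of the zinc finger transcription factor Gata3, and each library is a pool of 10 lenses taken from 5 embryos. CKO embryos are Gata3 f/f with Pax6-Cre, a transgene that expresses Cre recombinase in precursors of the lens and cornea and removes exon 4 of Gata3. The controls are called wild type in the sample labels, Gata3 f/f in the study's methods and Gata3 f/wt without Cre elsewhere in the study, and the mice are of mixed C57BL/6 and FVB background. Since only the libraries labelled CKO carry Cre, effects of Cre and of Gata3 loss cannot be told apart here.

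Cholesterol is built from acetyl-CoA through mevalonate, farnesyl diphosphate, squalene and lanosterol. The transcription factor SREBP2 switches on most genes of the pathway when sterols in the endoplasmic reticulum run low. Membranes of lens fibre cells are unusually rich in cholesterol, and inherited defects of lanosterol synthase cause cataract.

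Libraries held 15157230 to 18811104 counts. The targeted gene, Gata3, was counted 202, 386 and 156 times in controls 1 to 3, and in libraries labelled CKO 910, 1064 and 894 times, so the count over the whole gene went against the label. That count does not separate the deleted exon from the rest of the gene, and reads over exon 4 were not analysed here. The study states that its RNA-Seq showed exon 4 excised in the mutant lenses. It also reports strongly reduced Gata3 RNA in mutant lenses by qPCR with primers that reach into exon 4. In the same libraries Dnase2b, the nuclease gene of differentiating fibre cells, had 7.54 to 22.6 CPM in control and 0.305 to 0.973 CPM in CKO, Bfsp2, a beaded filament gene, a log2 fold change of -1.55, and Crygb, a gamma-crystallin gene, one of -2.67, all without overlap between groups. The tissue carried the defining markers of lens, with the 16 crystallins together at 52089 to 189398 CPM (counts scaled to a fixed library size). All directions below are those of the libraries labelled CKO relative to control.

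Promoter sequences are shown for the first enzyme among the 7 genes and for the regulator, Insig1. Of these 2, only Hmgcs1 matched the exact pattern searched for the sterol regulatory element, a motif that SREBP factors read. RefSeq promoters on GRCm38.p6, each running from 250 bases before to 50 bases after the start of transcription, were found for 5 of the 7 genes, Hmgcs1, Lss, Cyp51, Dhcr7 and Insig1. The sequences below read 5′ to 3′ on the strand of the gene. Capitals mark a sterol regulatory element (TCACNCCAC on either strand) or an NF-Y box (CCAAT, or ATTGG where it lies on the other strand).
Hmgcs1, chr13:119690101-119690400 (+): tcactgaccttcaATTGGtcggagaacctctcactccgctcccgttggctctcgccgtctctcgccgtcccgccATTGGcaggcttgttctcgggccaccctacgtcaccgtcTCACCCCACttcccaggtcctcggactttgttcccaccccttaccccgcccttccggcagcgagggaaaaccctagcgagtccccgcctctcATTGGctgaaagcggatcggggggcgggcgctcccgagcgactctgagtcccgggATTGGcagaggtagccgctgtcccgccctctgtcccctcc
Insig1, chr5:28071162-28071461 (+): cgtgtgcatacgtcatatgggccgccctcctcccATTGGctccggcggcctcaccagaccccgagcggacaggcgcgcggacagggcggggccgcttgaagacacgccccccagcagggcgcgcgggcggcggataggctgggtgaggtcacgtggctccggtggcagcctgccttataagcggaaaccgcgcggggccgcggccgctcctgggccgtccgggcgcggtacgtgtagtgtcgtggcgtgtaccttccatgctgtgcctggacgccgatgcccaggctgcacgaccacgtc

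The exact pattern TCACNCCAC was matched in Hmgcs1 only, starting at position -137, and was held by 1.24% of all 32851 promoters of this length. Sterol regulatory elements with other letters were not searched, so the lack of a match does not show that a promoter has none. An NF-Y box, bound by a factor that works beside SREBP at many sterol genes, was matched in at least 1 promoter of each of the 5 genes. Hmgcs1 had 4 such boxes. In Dhcr7 only 1 of the 3 annotated promoters held an NF-Y box. Of all promoters of the same length, 37.4% held one, a share per promoter and not per gene. A GATA motif was matched only in Dhcr7, in 2 of its 3 annotated promoters, which overlap and hold the same match at position -4 of one start and -236 of the other, and 29.8% of all promoters held it. These matches describe letters in a window and not binding.

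Insig1, which encodes the endoplasmic reticulum protein that holds back SREBP when sterols are plentiful, had the largest difference of the 7. Its normalised level was 113, 138 and 129 CPM in the control pools and 108, 101 and 110.0 CPM in the pools labelled CKO, so that the groups did not overlap. The gap between the lowest control pool and the highest CKO pool was 2.97 CPM. The mean was 127 ± 12.9 CPM in control and 106 ± 4.85 CPM in CKO (SD, n = 3 each), a log2 fold change of -0.26 (SE 0.092, 95% interval -0.48 to -0.039). The unadjusted p of 0.0271 from edgeR's quasi-likelihood test did not survive Benjamini-Hochberg adjustment over all genes (adjusted p = 0.9998). An exact two-sided permutation test gave p = 0.1, the smallest that 3 pools against 3 allow. The unadjusted p was above 0.05 without TMM normalization factors, where the log2 fold change was -0.15, and also without control 2 (-0.18), control 3 (-0.24), CKO 1 (-0.27) or CKO 2 (-0.22).

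None of the 7 genes passed an adjusted p of 0.05 in edgeR. In that test 0 of 12879 genes (0%) did, and 457 had an unadjusted p under 0.05, while DESeq2 called 85 genes, none of them among the 7. Insig1 was the only one of the 7 with an unadjusted p under 0.05, in the lower direction, where the background over all genes was 2.24% lower and 1.3% higher. Insig1 and Fdft1 did not overlap between groups, both lower, against 4.69% of all genes that lay apart in the lower and 3.67% in the higher direction. Exact two-sided permutation tests gave p = 0.1 for Fdft1 and p = 0.2 to 0.9 for the remaining 5 genes. The point estimates were lower for 5 genes and higher for 2, although Cyp51 and Sqle came out higher without TMM factors (0.013 and 0.050). The median log2 fold change of the 7 genes was -0.095, beside 0.0019 over all genes tested, and the median without regard to sign was 0.095 beside 0.087. Leaving out 1 library moved the median of the 7 to between -0.15 (without CKO 3) and -0.045 (without CKO 2). Each of the 7 intervals lay within 0.5 of zero on the log2 scale, the lowest bound being -0.48 in Insig1 and the highest 0.50 in Dhcr7. In pooled tissue, fewer cells of a type and less RNA per cell cannot be told apart. The edgeR p-values set each difference against the variation between pools, which includes counting error.

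**Figure D1:**
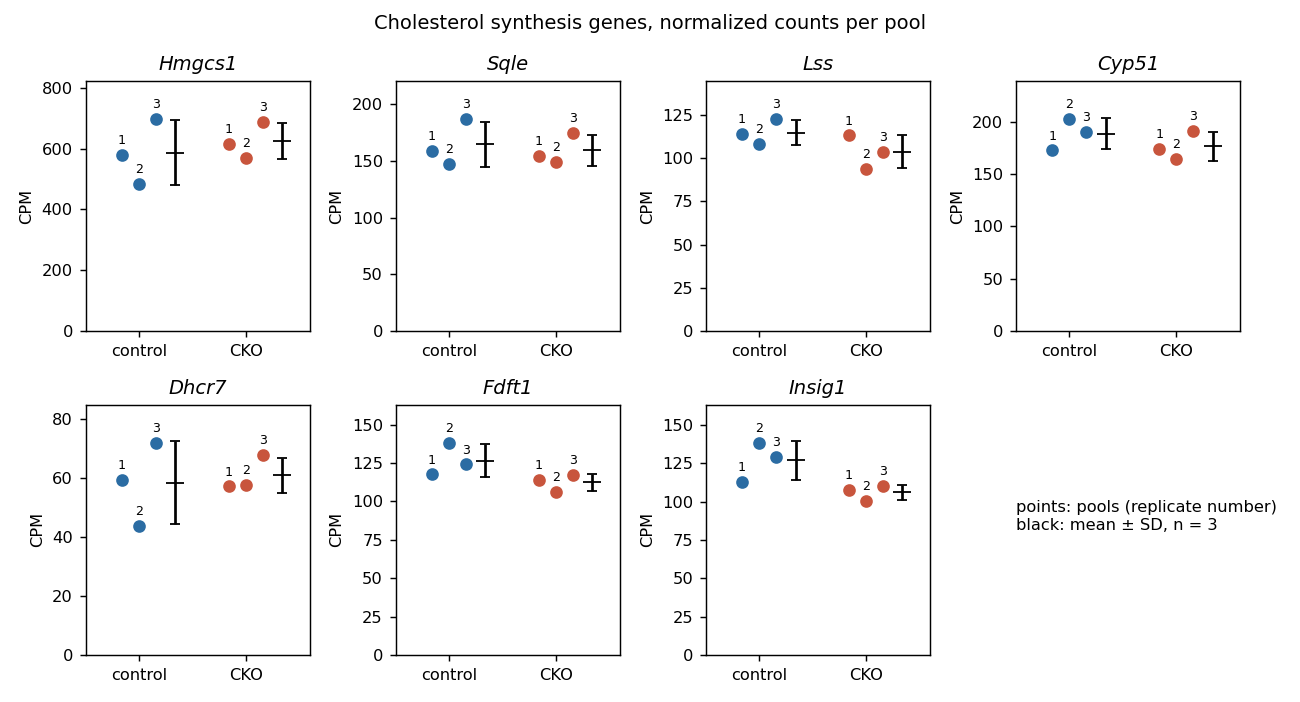
Level of each of the 7 genes in the 6 pools. The vertical axes give TMM-normalised CPM from 0, points are pools marked with their replicate number (3 control, 3 labelled CKO), and the black bars give mean ± SD. Insig1 and Fdft1 are the only panels in which all CKO pools lie below all control pools, in Fdft1 by 0.26 CPM.

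Along the pathway, Hmgcs1 comes first. It encodes the cytosolic synthase that joins acetoacetyl-CoA and acetyl-CoA to HMG-CoA, the precursor of mevalonate. The gene (ENSMUSG00000093930, chr13:119690379-119708260 on the plus strand of GRCm38) was at 579, 483 and 697 CPM in control and at 616, 569 and 689 CPM in CKO pools. All 3 CKO pools lay inside the range of the controls. The means were 586 ± 107 and 625 ± 60.3 CPM, with a log2 fold change of 0.092 (SE 0.15, interval -0.26 to 0.45), and the estimate turned to -0.018 without control 2.

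Fdft1 encodes squalene synthase, which commits farnesyl diphosphate to sterols. It lies on the minus strand at chr14:63145150-63179578 (ENSMUSG00000021273). Control pools were at 118, 138 and 124 CPM and CKO pools at 114, 106 and 117 CPM. The highest CKO pool and the lowest control pool were separated by only 0.26 CPM, so the lack of overlap in Fdft1 was marginal. The means were 127 ± 10.5 and 113 ± 5.57 CPM, and the log2 fold change was -0.17 (SE 0.084, interval -0.37 to 0.030). Its transcript shares 774 bases with that of the neighbouring gene Ctsb on the opposite strand, which encodes cathepsin B. Ctsb was at 184 ± 40.5 CPM in control and 167 ± 18.3 CPM in CKO, and since the strand option of the counting is not stated, reads of Fdft1 and Ctsb may not be fully separated. A processed pseudogene of Fdft1, Gm6781, with 97.4% identity over 1249 bases, is not in the count table.

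Sqle encodes squalene epoxidase, the first oxygenation step and a rate-limiting enzyme of the later pathway. Its transcription unit (ENSMUSG00000022351) lies at chr15:59315077-59331192 on the plus strand. Sqle was at 159, 147 and 187 CPM in control and at 155, 149 and 175 CPM in CKO pools, with the CKO pools inside the control range. The log2 fold change was -0.045 (SE 0.11, interval -0.31 to 0.22), from means of 164 ± 20.1 and 159 ± 13.7 CPM.

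Lss encodes lanosterol synthase, which folds oxidosqualene into the first sterol of the pathway. It lies at chr10:76531588-76557138 on the plus strand (ENSMUSG00000033105). Its levels were 114, 108 and 122 CPM in control and 113, 93.8 and 104 CPM in CKO. CKO 2 and CKO 3 were below all controls, and CKO 1 was not. From 115 ± 7.26 to 103 ± 9.56 CPM the log2 fold change was -0.15 (SE 0.092, interval -0.37 to 0.070). The sign of Lss stayed the same under all 15 alternatives to the fit, between -0.22 and -0.052, as did that of Fdft1, between -0.20 and -0.061.

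Cyp51, the cytochrome P450 that removes the 14-alpha methyl group of lanosterol, lies on the minus strand at chr5:4081145-4104746 (ENSMUSG00000001467). Control pools were at 173, 202 and 191 CPM and CKO pools at 174, 164 and 191 CPM. The groups overlapped, with means of 189 ± 15.01 and 177 ± 13.7 CPM and a log2 fold change of -0.095 (SE 0.092, interval -0.31 to 0.12). The Cyp51 estimate was -0.030 without control 2, -0.045 without CKO 2 and -0.16 without CKO 3. Akap9, on the opposite strand and overlapping the Cyp51 gene, had a log2 fold change of -0.12 (SE 0.12), and the 2 genes may likewise share reads if strand was not used.

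Dhcr7 encodes 7-dehydrocholesterol reductase, which makes cholesterol in the last step and is defective in Smith-Lemli-Opitz syndrome. This gene (ENSMUSG00000058454) spans chr7:143823145-143848410 on the plus strand. It had the lowest counts of the 7 genes, down to 621 in control 2, and the widest spread between pools. Dhcr7 was at 59.4, 43.8 and 71.9 CPM in control and 57.2, 57.8 and 67.8 CPM in CKO, so that control 2 and control 3 enclosed all the other pools. The log2 fold change of 0.061 (SE 0.18, interval -0.37 to 0.50) came from means of 58.4 ± 14.1 and 60.9 ± 5.97 CPM and ran from -0.097 without control 2 to 0.24 without control 3.

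Insig1 (ENSMUSG00000045294) spans chr5:28071363-28078662 on the plus strand. On a scale per length (CPM per kilobase of exon), Hmgcs1 was the most abundant of the 7 genes at 168 ± 30.7 in control, followed by Sqle at 59.6 ± 7.29, Cyp51 at 48.0 ± 3.82, Insig1 at 47.0 ± 4.77, Fdft1 at 34.2 ± 2.85, Lss at 24.6 ± 1.56 and Dhcr7 at 17.6 ± 4.26. Of the neighbours in this order, only Cyp51 and Insig1 overlapped between control pools. In CKO the order of the means was the same, with Hmgcs1 at 179 ± 17.3 and Dhcr7 at 18.4 ± 1.80 per kilobase. Summed over the 7 genes, the level was 1365 ± 138 CPM in control and 1344 ± 107 CPM in CKO.

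**Figure D2:**
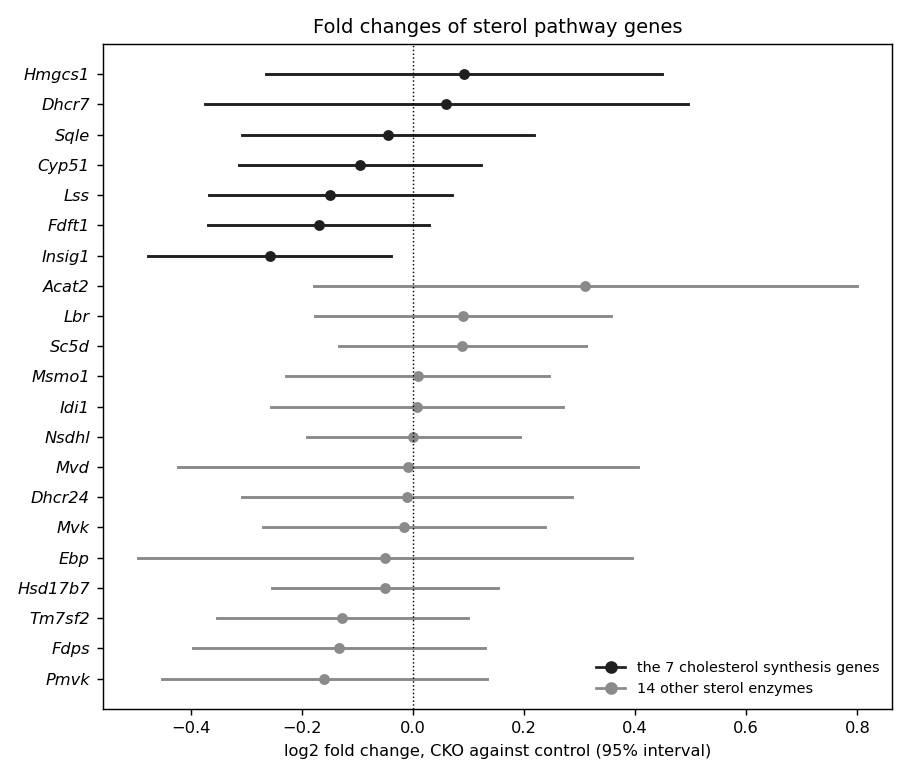
Log2 fold change of CKO against control with its 95% interval from edgeR (horizontal axis) for the 7 cholesterol synthesis genes in black and 14 of the 15 other enzymes of sterol synthesis in grey. Insig1, from -0.48 to -0.039, is the only gene plotted whose interval leaves out zero.

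The other enzymes of sterol synthesis also differed little between the groups. Of 15 such genes, all tested, 8 had a lower and 7 a higher estimate, none had an unadjusted edgeR p under 0.05, and the median log2 fold change was -0.0084. Acat2, cytosolic acetoacetyl-CoA thiolase, had the highest estimate at 0.31 (interval -0.18 to 0.80), and Lbr, a sterol reductase of the inner nuclear membrane, came next at 0.090. At the lower end stood the mevalonate pathway kinase Pmvk at -0.16 and farnesyl diphosphate synthase Fdps at -0.13. Tm7sf2, another sterol reductase, was the one gene of the 15 whose groups did not overlap, at 21.4 to 23.0 CPM in control and 19.6 to 21.3 CPM in CKO, with a log2 fold change of -0.13.

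None of the 12 genes that govern SREBP had an unadjusted edgeR p under 0.05 or lay apart between groups, and 4 estimates were lower and 8 higher with a median of 0.035. Srebf2, the gene of SREBP2, was at 283, 275 and 340.0 CPM in control and 311, 279 and 328 CPM in CKO. This amounted to a log2 fold change of 0.031 (interval -0.23 to 0.29). Srebf1 was at 86.7 to 99.0 CPM in control and 96.7 to 109.9 CPM in CKO, at 0.16 (interval -0.035 to 0.36), and Erlin1, which encodes a protein of the endoplasmic reticulum membrane, was at 0.18. Insig2, the paralogue of Insig1, was at 30.7, 40.7 and 31.1 CPM in control and 34.8, 32.2 and 31.6 CPM in CKO. The groups overlapped and the Insig2 log2 fold change was -0.053 (interval -0.36 to 0.26).

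Among genes of sterol uptake and efflux, 14 of 16 were in the table and tested, with 5 lower and 9 higher estimates, none at an unadjusted edgeR p under 0.05, and a median of 0.021. Apoe was lowest at -0.29 (interval -0.76 to 0.18), followed by the exporter Abca1 at -0.12, and the highest were Mylip at 0.20 and Vldlr at 0.14. Nr1h2, encoding an oxysterol receptor, did not overlap between groups and had a log2 fold change of 0.073. The 12 genes of fatty acid synthesis had 4 lower and 8 higher estimates and a median of 0.044. Scd1, a stearoyl-CoA desaturase, did not overlap, at 21.5, 14.9 and 22.3 CPM in control against 27.3, 23.1 and 26.6 CPM in CKO (log2 fold change 0.39, interval -0.019 to 0.79). Fads2 followed at 0.20, and Me1 and Acss2 were lowest at -0.12 and -0.035. Lens fibre genes, by contrast in size, had lower estimates in 17 of 17 genes tested with a median log2 fold change of -1.15. Of them, 10 had an unadjusted edgeR p under 0.05, against 2.24% of all genes in that direction. The list includes genes that the study reported as lower in the same lenses, among them Dnase2b, Bfsp2 and Crygb. Its direction is therefore no independent result, and all 17 genes were highest in control 2.

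**Figure D3:**
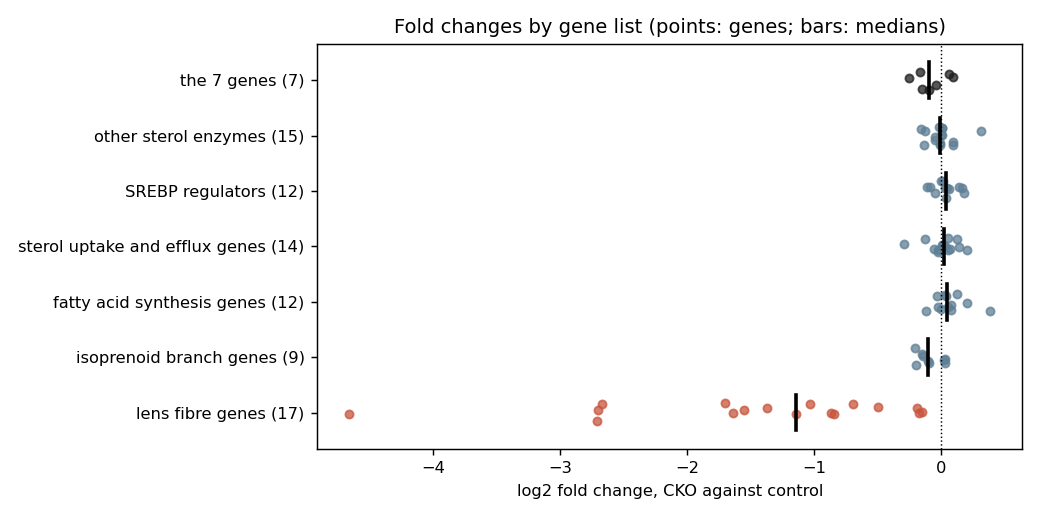
Log2 fold change of CKO against control (horizontal axis) for each gene tested of the lists named on the vertical axis, with the number of genes in brackets. Points are genes and bars are medians. The 7 cholesterol synthesis genes lie between -0.26 and 0.092, while the lens fibre genes reach -4.66.

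The standard deviation of their log2 CPM over the 6 pools was 0.11 to 0.25 with a median of 0.14, beside 0.16 over all genes tested, and the ratio of the highest to the lowest pool ran from 1.23 in Cyp51 to 1.64 in Dhcr7. The 7 genes took 1 of 2 patterns among the controls. Hmgcs1, Sqle, Lss and Dhcr7 were lowest in control 2 and highest in control 3. Cyp51, Fdft1 and Insig1 were highest in control 2. Over all genes tested, 42.3% were highest and 40.4% lowest in control 2, and 29.6% had the order of the first 4. The other 15 sterol enzymes were divided in the same manner, with 8 lowest in control 2 and 7 highest.

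Markers of other tissue varied between pools, in part in the same order as the 7 genes. All 14 retina genes were highest in control 3 and lowest in control 2, and their sum was 984 to 2359 CPM in control and 1549 to 2118 CPM in CKO. The order of the retina sum among the CKO pools, 3 over 1 over 2, was shared by 5 of the 7 genes, all but Lss and Dhcr7. The share of all genes tested with this CKO order was not computed, so no link to retina content is read from the count. Conversely, 17 of 17 lens fibre genes were highest in control 2, and their sum was 19707 to 59017 CPM in control and 15434 to 21994 CPM in CKO. Cyp51, Fdft1 and Insig1 were also highest in control 2, as were 42.3% of all genes tested. Their order over the other control pools and over the CKO pools differed from that of the lens fibre sum. No link to fibre content is read from the shared peak. Mesenchyme genes summed to 331 to 2354 CPM in control and 367 to 4078 CPM in CKO, and were high in control 1 and CKO 2. None of the markers tested was at 0 counts in a library. When the levels of retina and mesenchyme genes entered the fit as covariates, an alternative chosen after seeing the data, the log2 fold change was 0.027 in Hmgcs1, -0.028 in Dhcr7, -0.088 in Sqle, -0.069 in Cyp51, -0.13 in Fdft1, -0.16 in Lss and -0.22 in Insig1. None of the 7 passed adjustment over all genes in that edgeR fit (lowest adjusted p = 0.0805, in Insig1), while Lss and Insig1 had an unadjusted p under 0.05. So did 1501 of the 12879 genes tested, against 457 in the main fit, so the 2 genes are not read as a result. The covariates leave that fit fewer residual degrees of freedom than the main fit. The part of lens fibre content was not tested.

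**Figure D4:**
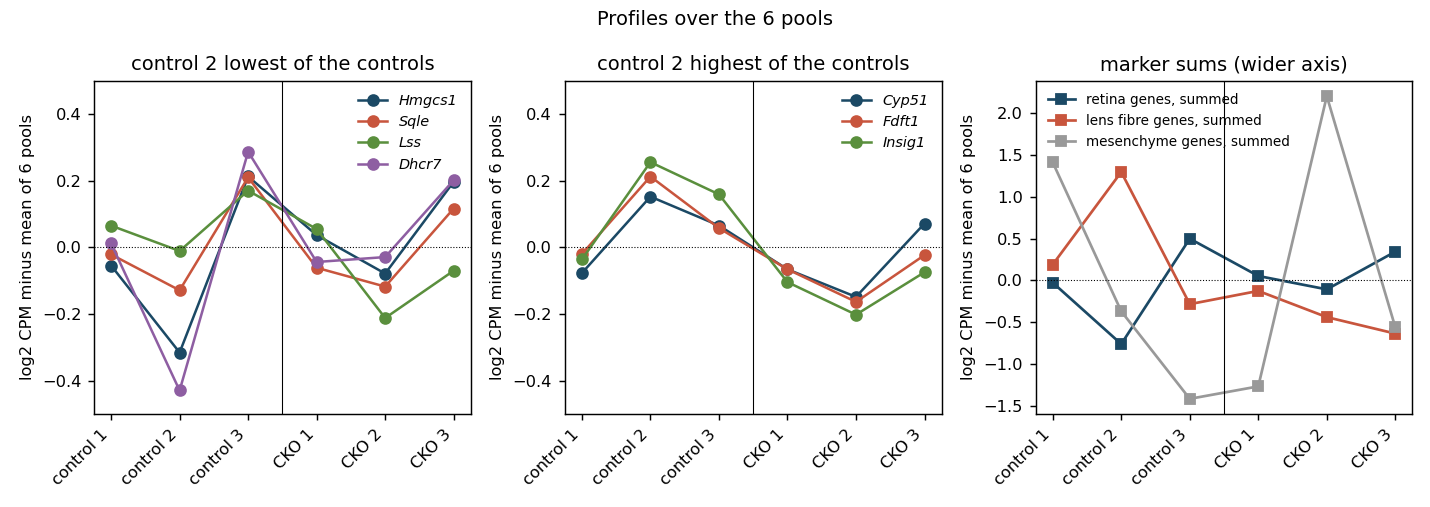
Log2 CPM minus its mean over the 6 pools (vertical axis) for each pool (horizontal axis, control left of the line and CKO right of it). Hmgcs1, Sqle, Lss and Dhcr7 share the left panel and Cyp51, Fdft1 and Insig1 the middle one, and the right panel shows the summed retina, lens fibre and mesenchyme genes on a wider axis, with the retina sum lowest and the lens fibre sum highest in control 2.

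The likeness of other genes to the mean profile of the 7 was measured by the root mean square difference of centred log2 CPM over the 6 pools. Sqle was the nearest of the 7 to their mean at 0.049 and ranked 62 of 12879 genes, and Dhcr7 the farthest, at rank 6845. Each of the 7 genes is part of that mean, which favours its own rank. Outside the lists the nearest genes were Homer1 at 0.020, Pias4 at 0.022, Smarca4 at 0.025, Polb at 0.025 and Zbtb22 at 0.026. Among the sterol enzymes and regulators, Hsd17b7 ranked 38 and Srebf2 243, and 12 of the 15 other sterol enzymes were nearer than the median gene. The measure was not scaled for spread, and the mean profile was nearly flat (-0.14 in CKO 2 to 0.17 in control 3). Genes that vary little therefore lie near it. The 15 other sterol enzymes had a median standard deviation of 0.12, beside 0.16 over all genes, so their nearness is not read as a shared profile.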

How the data were processed

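RNA-Seq of 6 pools was available. As the study's methods describe, the authors aligned reads of strand-specific libraries to mm10 with TopHat2 2.0.13 and counted fragments per RefSeq gene with HTSeq 0.6.1. The deposited raw counts cover 13024 genes, the number that the study gives as detected above a mean FPKM limit. Of these genes, 42 had 0 counts in all 6 libraries. The strand option is not given in the sources used here. Title numbers name the CKO pools, and 0 columns were left unmatched.

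The filter for low counts (10 or more counts in 3 or more libraries) preceded the test in edgeR 4.0.16 (TMM, robust quasi-likelihood fit over all 6 libraries, Benjamini-Hochberg adjustment at 0.05). Fits were tested on simulated data. Exact permutation tests used log2 CPM with an offset of 0.5, and profiles a prior count of 1. Alternatives were DESeq2 1.42.0, limma voom 3.58.1, other normalizations and filters, a replicate block, each library left out and, chosen after seeing the data, retina and mesenchyme covariates. Pools with the same title number showed no common direction of deviation (r = -0.487, 0.0899 and 0.442). By the numbers of the count columns, control 2 goes with CKO 1 (r = 0.0884) and control 3 with CKO 2 (r = -0.480). These values can neither show nor exclude pairing, and the main fit used no block. Positions and exon lengths came from GENCODE M21 on GRCm38, the assembly of mm10. Copies of transcripts were sought with blastn 2.17.0 at 95% identity over 200 bases.

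The 7 genes and the lists were chosen with earlier results of these data known. Named genes are all 7, list genes with an unadjusted p under 0.05, without overlap, or among the 2 highest or lowest of a list, Srebf2 and Insig2, and the 5 nearest profiles outside the lists. Lens fibre and other marker lists are given by counts, sums and the fold changes of the lens fibre genes. Some genes that this rule names are not reported here.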

Additional observations from a re-analysis of the deposited data

How the results depend on the processing

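Over 15 alternatives, Insig1, Fdft1 and Lss kept a lower estimate, and Insig1 ran from -0.32 to -0.15 with an unadjusted edgeR, limma or DESeq2 p under 0.05 in 10. Without normalization factors the median log2 fold change of the 7 genes was 0.013, that of all genes 0.10, of the other sterol enzymes 0.10, of SREBP regulators 0.13, of uptake genes 0.13 and of fatty acid genes 0.14, Cyp51 was at 0.013 and Sqle at 0.050, 0 of the 7 genes had an unadjusted p under 0.05, and 1 gene of all passed adjustment. DESeq2 called 85 genes. With the retina and mesenchyme covariates, chosen after seeing the data, 469 genes passed adjustment and 1501 an unadjusted p of 0.05, Dhcr7 was at -0.028, and 2 of the 7 genes, Lss (-0.16) and Insig1 (-0.22), had an unadjusted p under 0.05. Leaving out 1 library gave 0 to 1 genes past adjustment (1 without control 3), 271 (without CKO 3) to 1234 (without control 3) past an unadjusted p of 0.05, with 806 in the fit without control 2, and 0 to 1 of the 7 genes, with 0 without control 2, control 3, CKO 1 or CKO 2. Over these, the median of the 7 genes ran from -0.15 to -0.045, Cyp51 from -0.16 to -0.030, Hmgcs1 from -0.018 to 0.24, Sqle from -0.12 to 0.057 and Dhcr7 from -0.097 to 0.24. With the replicate block, 516 genes had an unadjusted p under 0.05, 0 passed adjustment and 1 of the 7 did the former, Insig1 at -0.25, so that no call on the 7 genes changed. The causes were not tested. Each of the 7 genes had at least 621 counts in every library, and the shares of counting error and spread between pools in the standard errors were not separated.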

Other observations

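Farnesyl diphosphate, the substrate of squalene synthase, also feeds a non-sterol branch that supplies prenyl groups, dolichol and the tail of ubiquinone. The 9 genes of this branch had 6 lower and 3 higher estimates and a median log2 fold change of -0.10. None had an unadjusted edgeR p under 0.05. Groups did not overlap in 3 of them, all lower in the libraries labelled CKO, where 4.69% of all genes tested lay apart in that direction. This list was not followed through the alternatives to the fit. Without normalization factors the median of all genes moved to 0.10, a shift as large as the median of this list. Nus1, a subunit of the enzyme that makes the dolichol chain, was at 79.8, 77.0 and 76.0 CPM in control and 66.3, 72.3 and 70.8 CPM in CKO, a log2 fold change of -0.15. Dhdds, the other subunit of that enzyme, was at 61.1, 60.7 and 61.3 CPM in control and 54.8, 57.2 and 58.7 CPM in CKO. The Dhdds log2 fold change was -0.10 (interval -0.27 to 0.064). Pdss2, a subunit of the synthase of the ubiquinone tail, was at -0.20 (interval -0.49 to 0.094). The lowest estimate was that of the farnesyltransferase subunit gene Fnta at -0.21, with overlapping groups, and the highest were Ggps1 at 0.028 and Fntb at 0.026.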
